A study of Mus musculus with 7 samples.

Results

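Bend5 and 6 other genes of its family, Bend3, Bend4, Bend6, Bend7, Nacc1 and Nacc2, were examined in pancreatic islets of control mice and of mice in which Wnt4 had been inactivated in β-cells. These 7 genes are 7 of the 22911 named genes on the arrays. Every probe whose RefSeq accession belonged to one of them was kept, which gave 13 probes. Of these, 7 probes of 6 genes exceeded background clearly on 3 or more of the 7 arrays and were tested, out of 26151 tested probes and 13666 named genes with a tested probe. Bend5 was chosen on the values measured here, because its difference between the groups was already known, so its difference is given as a description without a test. The other 6 genes were taken for the domain they share with it.

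BEN domain proteins carry a small helical fold that binds DNA or other proteins in chromatin, and most described members repress transcription. Bend5 and Bend6 are compact relatives of the Drosophila factor Insensitive, which represses targets of Notch signalling, and Bend6 is known as a neuronal antagonist of Notch that binds the Notch effector Rbpj. Bend3 acts at heterochromatin and at CpG-rich promoters together with the nucleolar remodelling complex, the deacetylase complex NuRD and Polycomb repressive complex 2, while Nacc1 and Nacc2 join a BEN domain to a BTB domain and recruit histone deacetylases.

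Islet RNA of male mice was measured on 7 single-colour oligonucleotide arrays. Whether each array held the islets of 1 mouse was not determined. Control mice, on 3 arrays, carried floxed alleles, Wnt4 fl/fl, and no Cre. Wnt4βKO mice, on 4 arrays, carried the same floxed alleles and Pdx1CreER. The latter is a tamoxifen-inducible Cre recombinase under the promoter of Pdx1, which is active in β-cells. Both groups received tamoxifen at 50 mg/mL by gavage at 4 to 5 weeks of age and islets were taken at 7 weeks. An islet preparation also holds other endocrine cells, vessels and some exocrine tissue, which the inactivation did not target, and because no control mouse carried the Cre transgene, the loss of Wnt4 and the presence of the transgene cannot be told apart. In whole islets, a change in the number of cells that make a transcript and a change in the amount per cell cannot be told apart either.

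All 7 arrays lay on 1 slide and came from 1 scan, and on each of them 45.5% to 49.0% of the spots outside the controls exceeded background by the scanner's own test. Saturation was not seen. Precision is limited throughout by the small number of arrays. Values are listed in the order of control replicates 2, 3 and 4 and of Wnt4βKO replicates 1 to 4. Wnt4 itself, with a single probe (A_66_P139703), had log2 signals of 11.55, 11.17 and 11.80 in the control islets and of 11.32, 10.82, 11.01 and 10.90 in the Wnt4βKO islets. The difference was -0.49 ± 0.17 (SE), or 71.0% of control, and the groups overlapped. The unadjusted limma p was 0.024, and it was 0.651 after Benjamini-Hochberg adjustment over all tested probes. The difference kept its sign in all 19 alternative settings of the processing, from -0.67 to -0.35. The unadjusted limma p was under 0.05 in 12 of these, and the adjusted one in 0. Whether probe A_66_P139703 falls in the deleted exons was not determined. The paper reported lower Wnt4 transcript by qPCR in islets of such mice, and checked the inactivation by WNT4 immunostaining.

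Because Bend5 stood so far from its relatives, the bases before its annotated start are shown with those of Bend6, the relative closest to it in build, and of Bend3, whose protein binds CpG-rich DNA. Each window is the 250 bases upstream of a RefSeq start in build GRCm38.p6, written 5′ to 3′ on the strand of the gene, with CpG dinucleotides in capitals. Windows were found for Bend3, Bend4, Bend5, Bend6 and Nacc2. Bend3 and Bend6 have 2 annotated starts each, and the window shown is the one that lies further upstream. The Bend5 window lies at chr4:111414756-111415005 on the plus strand, the Bend6 window at chr1:33907768-33908017 on the minus strand and the Bend3 window at chr10:43478890-43479139 on the plus strand.
Bend5: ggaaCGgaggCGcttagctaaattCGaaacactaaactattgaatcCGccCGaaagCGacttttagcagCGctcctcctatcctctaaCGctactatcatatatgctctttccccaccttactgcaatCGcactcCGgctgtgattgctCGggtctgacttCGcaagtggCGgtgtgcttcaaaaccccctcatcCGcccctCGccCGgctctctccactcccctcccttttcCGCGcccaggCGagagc
Bend6: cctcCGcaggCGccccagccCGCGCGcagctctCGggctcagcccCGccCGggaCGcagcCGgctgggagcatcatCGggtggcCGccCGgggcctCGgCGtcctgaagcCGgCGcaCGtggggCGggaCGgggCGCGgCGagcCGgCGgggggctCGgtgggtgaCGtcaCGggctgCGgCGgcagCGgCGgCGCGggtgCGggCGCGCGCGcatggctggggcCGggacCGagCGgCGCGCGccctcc
Bend3: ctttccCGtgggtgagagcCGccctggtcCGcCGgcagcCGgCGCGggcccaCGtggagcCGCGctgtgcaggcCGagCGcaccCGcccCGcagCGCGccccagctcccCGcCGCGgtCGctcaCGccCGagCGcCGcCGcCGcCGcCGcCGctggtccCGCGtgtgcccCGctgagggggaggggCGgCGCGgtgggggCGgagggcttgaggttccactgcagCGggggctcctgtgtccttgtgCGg

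The Bend5 window held 19 CpG dinucleotides and 56.0% G and C. RefSeq begins the span of the whole gene somewhat before this window, so other transcripts of Bend5 may start elsewhere. It had more CpG than 80.1% of the 32536 distinct windows of that length, whose median was 6. The Bend6 window shown held 45 CpG and 83.6% G and C, and the Bend3 window shown 38 CpG and 80.4%. The windows of their other starts differed from each other, with 43 CpG and 80.8% for Bend6 and only 2 CpG and 49.6% for Bend3, fewer than Bend5. Both strands were searched for CTTTGAT, the core bound by the TCF/LEF factors of canonical Wnt signalling, for GTGGGAA, the core bound by Rbpj, for CCAATTGG, a palindrome bound by Insensitive-type BEN domains, and for the E-box CACGTG. No motif of this set contains another. None of the 4 stood in the Bend5 window. The shares of all windows that held them were 3.21%, 5.43%, 0.36% and 6.04%. The Bend6 window shown held an E-box that begins 135 bases before the start, and that of the Bend3 window shown begins 200 bases before it. The windows of their other starts held none of the 4. A match is a description of the letters only.

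Bend5 was dim in every control array and bright in every Wnt4βKO array. It has 2 probes, both designed on the transcript NM_026279. The median spot signal of the first, A_51_P158018, read in linear scanner units over a local background of 20 to 22, was 53, 83 and 60 in the control islets. In the Wnt4βKO islets it was 3624, 2483, 2022 and 1808. The lowest Wnt4βKO array thus lay far above the highest control array, and the Bend5 spots of the control arrays were still well above background by the test of the scanner software.

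The second Bend5 probe, A_66_P115034, gave a median spot signal of 44, 70 and 57 in the control islets. In the Wnt4βKO islets it gave 1414, 1314, 1287 and 1313. The groups were again separate, and the 4 Wnt4βKO arrays lay close together, whereas on the first probe Wnt4βKO replicate 1 was the brightest. Control replicate 3 was the brightest control array on both Bend5 probes, and its processed signals were also the highest over all probes, with a 75th percentile of 82.4 against 44.36 and 55.95 on the other control arrays.

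**Figure D1:**
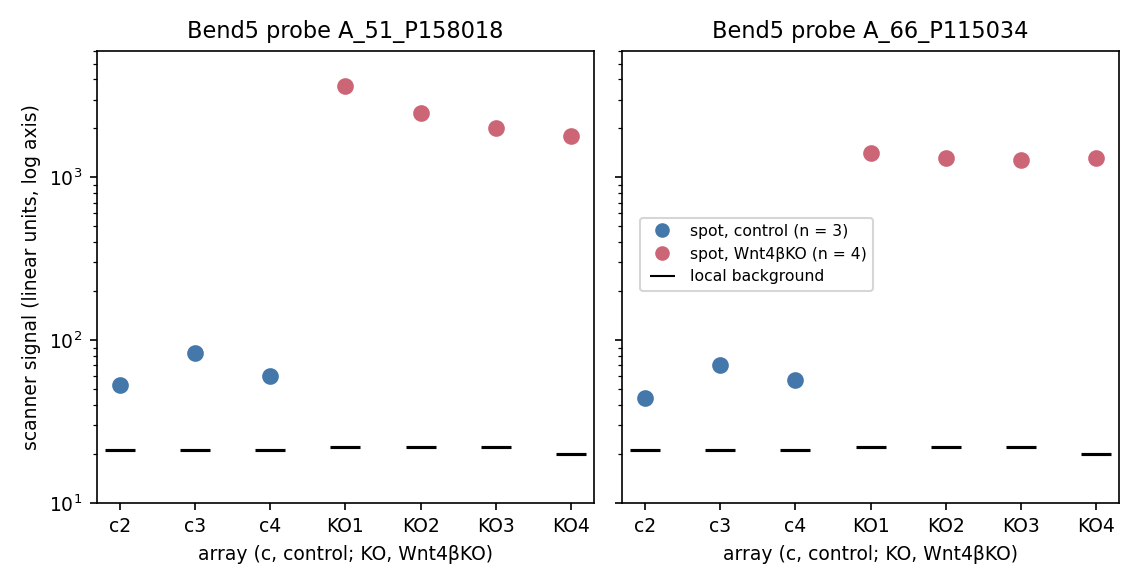
Median spot signal of the Bend5 probes on each array, in linear scanner units on a log axis, for control replicates 2 to 4 (blue) and Wnt4βKO replicates 1 to 4 (red), with the median local background of the same spot as a black dash. Control spots lie between 44 and 83, and Wnt4βKO spots between 1287 and 3624.

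After normexp background correction with an offset of 50 and quantile normalization, Bend5 probe A_51_P158018 had log2 signals of 6.65, 6.65 and 6.63 in the control islets and of 11.52, 11.25, 11.07 and 11.07 in the Wnt4βKO islets. The means were 6.65 ± 0.011 (SD, n = 3) and 11.23 ± 0.212 (SD, n = 4), and the difference was 4.58 ± 0.12 (SE) on the log2 scale, a 24.0-fold higher signal. Its 95% interval ran from 4.30 to 4.86. The SE and intervals of both Bend5 probes take no account of the choice of Bend5 on this contrast. They are a description and not a test. The brightness of control replicate 3 had gone from this probe after normalization.

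On the same scale Bend5 probe A_66_P115034 had log2 signals of 6.47, 6.51 and 6.59 in the control islets and of 10.20, 10.36, 10.42 and 10.63 in the Wnt4βKO islets. The difference was 3.88 ± 0.11 (SE), with a 95% interval of 3.63 to 4.13, or 14.7-fold. The order of the Wnt4βKO arrays was not the same on the pair of Bend5 probes: replicate 1 was the highest on the first and the lowest on the second. Within an array, the log2 signal of the first probe minus that of the second was 0.18, 0.13 and 0.05 in the controls and 1.32, 0.89, 0.65 and 0.44 in the Wnt4βKO arrays. The offset narrows such gaps where both signals are dim, as in the controls. On the processed signal, without an offset, the first probe divided by the second gave 1.33, 1.19 and 0.958 in the controls. In the Wnt4βKO arrays it gave 2.51, 1.73, 1.62 and 1.33. The groups were then not clearly apart, as control replicate 2 and Wnt4βKO replicate 4 were both at 1.33. Which transcripts each probe reports was not determined.

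The size of the Bend5 difference depended on the scale, since the offset of 50 is added to every signal and the processed control signals of Bend5 were only 27.5 to 67.4. With the processed signal of the scanner software, scaled to the 75th percentile of each array and without an offset, the differences were 5.78 ± 0.23 (SE) for A_51_P158018 and 5.18 ± 0.21 (SE) for A_66_P115034, which are 54.9-fold and 36.1-fold. The unscaled processed signal of the first probe averaged 48.8 ± 16.3 (SD) over the 3 controls and 2530 ± 757 over the 4 Wnt4βKO arrays, and that of the second 42.8 ± 14.6 and 1410 ± 103. The direction was the same on each of these scales.

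The Bend5 difference was also read within each row of the slide. Since the groups did not overlap on either Bend5 probe, any row holding both groups had to show it. The row values therefore give its size only, and an effect of slide position was not tested by them. Row 1 held control replicate 4 and Wnt4βKO replicates 1 and 2, and the difference in log2 signal there was 4.75 for A_51_P158018 and 3.69 for A_66_P115034. Row 2 held control replicates 2 and 3 and Wnt4βKO replicates 3 and 4, and the differences were 4.42 and 4.04. The authors also deposited a table of normalized log2 values, whose columns did not match the scanner arrays of the same name. In it the single Bend5 probe present, A_66_P115034, lay between 5.66 and 6.37 in all 7 columns. The Bend5 difference described here rests on the scanner files.

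None of the other BEN domain genes passed the test. Over all probes, 4 of 26151, or 0.0153%, passed an adjusted limma p of 0.05. Of the 7 tested probes of the family 2 did so, both of Bend5, which was chosen on that contrast, so nothing is read from this count. Of the 5 tested probes of Bend3, Bend4, Bend7, Nacc1 and Nacc2, 0 passed, and 0 had an unadjusted limma p under 0.05, where 7.02% of all tested probes did. The groups did not overlap for 1 of these 5 probes, that of Bend4, against 7.24% of all tested probes.

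Bend3, which acts at heterochromatin and at CpG-rich promoters, had a single probe (A_52_P179178). Its normalized log2 signals were 6.86, 6.95 and 6.54 in the control islets and 6.82, 6.98, 7.22 and 7.17 in the Wnt4βKO islets. The arrays overlapped, since Wnt4βKO replicate 1 lay below 2 of the controls. The difference was 0.26 ± 0.14 (SE), with a 95% interval of -0.06 to 0.58 and an adjusted limma p of 0.766. Leaving out control replicate 4 lowered it to 0.14.

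For Bend3 the scale decided whether the groups overlapped. On the processed signal scaled to the 75th percentile, its log2 values were 0.00, 0.15 and 0.03 in the control islets and 0.72, 0.92, 0.82 and 0.94 in the Wnt4βKO islets, and the groups were separate. The difference was then 0.79 ± 0.19 (SE), with a 95% interval of 0.36 to 1.22, an unadjusted limma p of 0.0026 and an adjusted one of 0.534. Within the rows of the slide, the difference in normalized log2 signal was 0.35 and 0.29.

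Bend4, a family member whose function is little described, had 1 probe (A_55_P2199118). Its normalized log2 signals were 6.27, 6.29 and 6.23 in the control islets and 6.32, 6.39, 6.40 and 6.33 in the Wnt4βKO islets. The Wnt4βKO values were all higher than the control values, but by little, as the difference was 0.09 ± 0.06 (SE), with a 95% interval of -0.05 to 0.24 and an adjusted limma p of 0.835. On the processed signal the groups overlapped and the difference was 0.14 ± 0.20 (SE).

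Bend7, also little described, had 1 tested probe (A_52_P50287), with normalized log2 signals of 6.17, 6.35 and 6.14 in the control islets and of 6.11, 6.24, 5.89 and 6.01 in the Wnt4βKO islets. The groups overlapped. The difference was -0.16 ± 0.10 (SE), with a 95% interval of -0.40 to 0.08 and an adjusted limma p of 0.828. On the processed signal it was -0.68 ± 0.33 (SE), with an interval of -1.43 to 0.08.

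Nacc1, a BTB and BEN domain corepressor known from stem cells and tumours, had normalized log2 signals of 7.15, 7.09 and 7.20 in the control islets and of 7.33, 7.05, 7.30 and 7.95 in the Wnt4βKO islets on its tested probe (A_52_P430247). Only Wnt4βKO replicate 4 stood clearly above the controls. The difference was 0.26 ± 0.20 (SE), with a 95% interval of -0.20 to 0.72 and an adjusted limma p of 0.858, and without Wnt4βKO replicate 4 it was 0.08.

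Nacc2, its closest relative, had normalized log2 signals of 7.15, 7.40 and 7.76 in the control islets and of 8.31, 7.67, 7.38 and 7.14 in the Wnt4βKO islets on its tested probe (A_55_P2005853). The Wnt4βKO arrays spanned the whole control range. The difference was 0.19 ± 0.28 (SE), with a 95% interval of -0.47 to 0.85 and an adjusted limma p of 0.926, and without Wnt4βKO replicate 1 it was -0.04. The intervals of Nacc1 and Nacc2 leave room for a change of more than 0.5 in either gene.

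**Figure D2:**
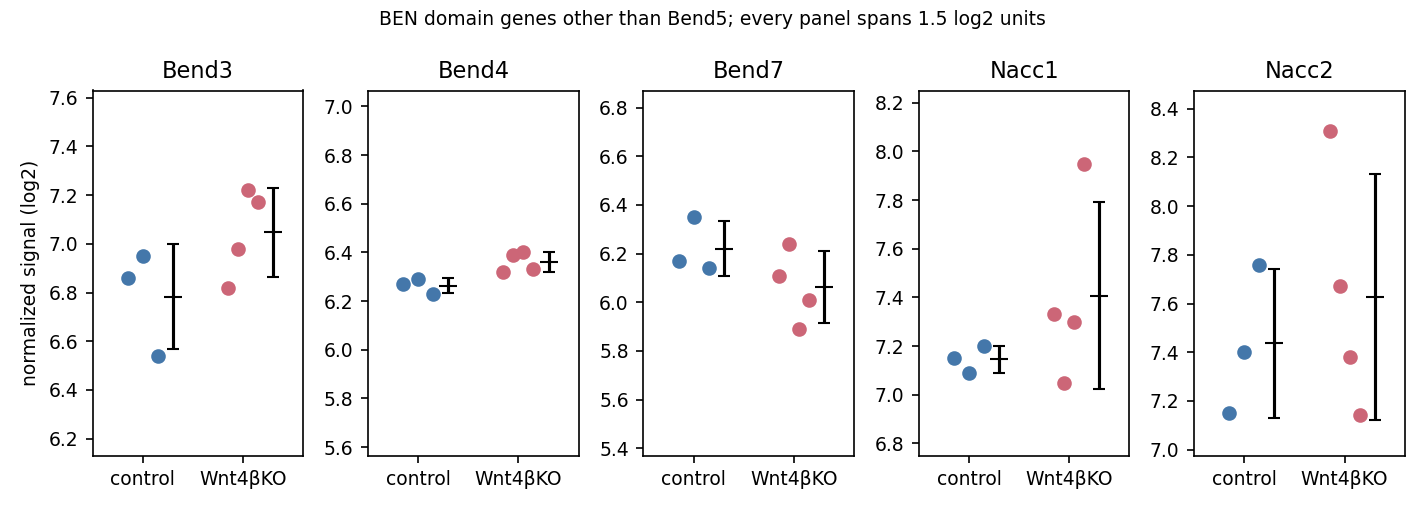
Normalized log2 signal of the tested probes of Bend3, Bend4, Bend7, Nacc1 and Nacc2 on each control (blue) and Wnt4βKO (red) array, with the group mean and SD in black; all panels have the same span. The groups overlap in every panel except Bend4, where they differ by 0.09.

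Bend6 could not be compared between the groups. Its probe A_52_P629625 was well above background on 1 of 7 arrays, Wnt4βKO replicate 4, with a normalized log2 signal of 6.07 there and of 5.81 to 5.89 on the other arrays. Its other probe, A_55_P2031949, exceeded background on 0 arrays and lay between 5.75 and 5.83. The remaining untested probes were A_52_P371021 of Bend7, above background on 1 array, A_52_P938109 and A_55_P2739838 of Nacc1, above background on 0 and 1 arrays, and A_55_P2178539 of Nacc2, on 0. Banp, a BEN domain gene outside the 7 that binds the matrix attachment regions of chromatin, differed by -0.10 ± 0.15 (SE), with an adjusted limma p of 0.926, and lay between -0.54 and -0.02 over 19 alternatives.

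**Figure D3:**
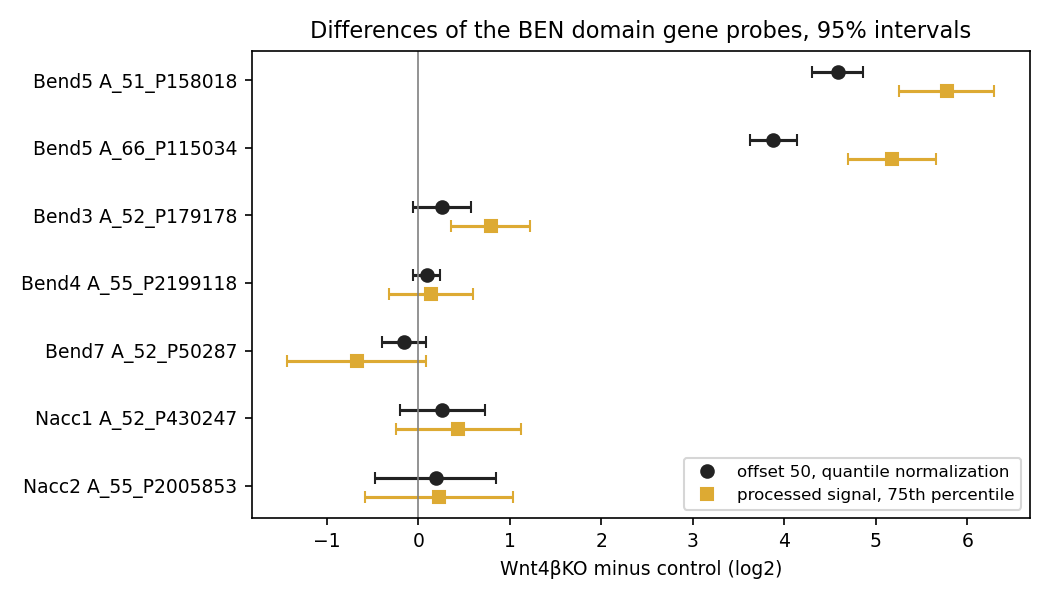
Wnt4βKO minus control of every tested BEN domain gene probe on the log2 scale, with 95% intervals from limma, after normexp with an offset of 50 and quantile normalization (black circles) and on the processed signal scaled to the 75th percentile (yellow squares). Both Bend5 probes lie at 3.88 or above, and the other probes between -0.68 and 0.79. The Bend5 intervals take no account of its choice on this contrast.

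The genes beside Bend5 were measured next, as Bend5 lies on chromosome 4 inside the annotated span of Agbl4, a gene for a carboxypeptidase of tubulin, and on the same strand. Wnt4, the floxed gene, is on chromosome 4 too, with 403 protein-coding genes starting between it and Bend5. Of the 10 protein-coding genes on either side of Bend5, 20 in all, 12 had a tested probe. Of these 0 passed the adjusted limma threshold, 1 had an unadjusted p under 0.05, and 2 lay above 0 and 10 below. Of all named genes, each by its brightest tested probe, 8.99% had an unadjusted p under 0.05 and 51.5% lay above 0. Their median difference was -0.15 and their range -0.45 to 0.05, where the median of all 13666 named genes was 0.01.

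Agbl4 had 2 tested probes, and only the brighter is given here. Its log2 signals were 6.69, 6.31 and 6.79 in the control islets and 6.57, 6.62, 6.41 and 6.33 in the Wnt4βKO islets. The groups overlapped, and the difference was -0.11 ± 0.13 (SE), with an adjusted limma p of 0.912. Leaving out single control arrays moved it from -0.25 (without replicate 3) to -0.02 (without replicate 4). On the other side, Spata6, a gene of sperm tail formation, differed by 0.02 ± 0.15 (SE), with an adjusted limma p of 0.988, and its sign turned in 8 of 19 alternatives. The groups were separate for Elavl4, which encodes a neuronal RNA-binding protein, with 8.0, 7.84 and 7.91 in the controls and 7.16, 7.72, 7.31 and 7.69 in the Wnt4βKO arrays. That difference, of -0.45 ± 0.15 (SE), did not pass the adjusted test, with a limma p of 0.631. They were also separate for Slc5a9, a sugar transporter gene, which differed by -0.20 ± 0.09 (SE), with an adjusted limma p of 0.722, and by -0.70 on the processed signal. Groups were separate for 8.35% of all named genes. The others, Faf1, Cdkn2c, Rnf11, Ttc39a, Eps15, Skint7, Skint9 and Skint10, overlapped between the groups. The Skint genes are related to each other, and whether their probes share signal was not tested.

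With the search extended to the 10 nearest genes with a tested probe on each side, a choice made after seeing the data, 0 of 20 passed the adjusted limma threshold and 2 had an unadjusted p under 0.05, Elavl4 and Cmpk1, a nucleotide kinase gene. The highest difference among them was the 0.42 of Pdzk1ip1. Its 95% interval was -0.57 to 1.41. The 2 of 20 stand beside the 8.99% of all named genes under that unadjusted p.

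**Figure D4:**
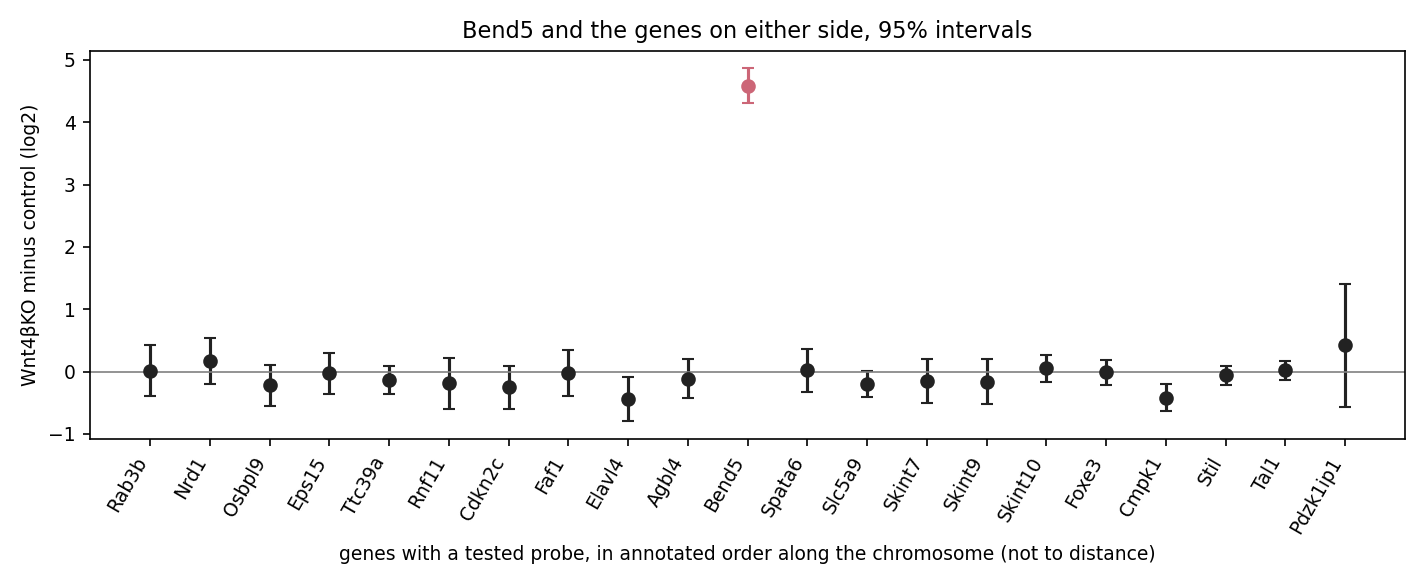
Wnt4βKO minus control on the log2 scale, with 95% intervals, of Bend5 probe A_51_P158018 (red) and of the 10 nearest genes with a tested probe on each side (black), in their annotated order and without distances. Bend5 lies at 4.58 and its neighbours between -0.45 and 0.42. The Bend5 interval takes no account of its choice on this contrast.

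Genes that BEN domain proteins are known to work with did not pass the test. Of the 26 Notch pathway genes listed, 20 had a tested probe and 0 passed, with a median difference of 0.08, 15 above 0 and 5 below. Jag1, Dll4, Hes1, Hey2 and Nrarp were on the array without a tested probe, so nothing can be said of them. At an unadjusted limma p of 0.05 there were 2 of the 20, both with separate groups, beside 8.99% of all named genes under that p and 8.35% with separate groups. Rbpjl, the relative of Rbpj found in acinar cells, had log2 signals of 10.25, 9.05 and 9.94 in the controls and of 7.25, 8.98, 8.78 and 8.10 in the Wnt4βKO arrays. Its difference was -1.47 ± 0.46 (SE), with an adjusted limma p of 0.608. The 11 acinar markers examined beside it had a median difference of -0.43, and their mean log2 signal per array was 14.5 to 14.59 in the controls and 13.63 to 14.47 in the Wnt4βKO arrays. Their part in the Rbpjl value was not tested. Ncstn, a subunit of the γ-secretase that releases active Notch, differed by 0.25 ± 0.07 (SE), with an adjusted p of 0.547 in limma. Rfng, a glycosyltransferase that modifies Notch, differed by 0.27 ± 0.16 (SE), and by 0.13 without Wnt4βKO replicate 1.

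Of the 21 genes of NuRD and other corepressor complexes, 20 were tested and 0 passed, with a median difference of 0.08. The largest differences were the 0.39 ± 0.26 (SE) of Gatad2a and the 0.35 ± 0.28 (SE) of Gatad2b, a pair of NuRD scaffold genes. Without Wnt4βKO replicate 1 they were 0.19 and 0.13, and without control replicate 4 they were 0.61 and 0.59. The only one of this list under an unadjusted limma p of 0.05 was Mbd2, which reads methylated CpG, at -0.29 ± 0.12 (SE) and an adjusted p of 0.688. Ncstn and Mbd2 were named after their values were seen.

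The nucleolar remodelling complex, which Bend3 joins at ribosomal DNA, has 2 subunits, and neither passed. Baz2a, its large subunit, had log2 signals of 9.25, 9.08 and 9.01 in the controls and of 9.96, 9.72, 9.61 and 9.66 in the Wnt4βKO arrays, and the groups were separate. The difference of 0.62 ± 0.11 (SE) had an unadjusted limma p of 0.00054 and an adjusted one of 0.388. Smarca5, the ATPase of the complex, differed by 0.02 ± 0.15 (SE), and its sign turned in 5 of 19 alternatives.

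All 9 listed genes of Polycomb repressive complex 2 were tested and 0 passed, either adjusted or at an unadjusted limma p of 0.05, with a median difference of 0.04. Eed, the subunit that reads trimethylated histone, differed by -0.22 ± 0.10 (SE) with separate groups and an adjusted limma p of 0.722, and Phf1, an accessory subunit, by 0.19 ± 0.11 (SE), or by 0.11 without control replicate 4. Of 10 BTB domain factors built like Nacc1 and Nacc2 outside the BEN domain, 9 were tested and 0 passed under either limma threshold, with a median of -0.01. Among them Bcl6, a repressor of lymphocyte differentiation, differed by -0.30 ± 0.25 (SE) and Zbtb7b, a factor of T cell lineage choice, by 0.23 ± 0.17 (SE). Bcl6 was at -0.07 without control replicate 4, and Zbtb7b at 0.08 without Wnt4βKO replicate 4.

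Markers of the cells that an islet preparation can hold were set beside Bend5. None of the 9 marker lists had a gene past the adjusted limma threshold, while 4 of their 61 tested genes had an unadjusted p under 0.05, where 8.99% of all named genes did. The 9 β-cell markers had a median difference of 0.01, and their mean log2 signal per array was 11.81 to 11.95 in the controls and 11.75 to 12.08 in the Wnt4βKO arrays. The medians of the other lists were 0.06 (α-cells), 0.04 (δ-cells and PP-cells together), -0.04 (ducts), -0.09 (endothelium), -0.04 (mesenchyme), 0.17 (immune cells) and -0.16 (neurons with Schwann cells). Apart from the acinar list, none of these medians was larger in size than 0.2, where the Bend5 probes differed by 3.88 and 4.58. The part of cell composition in the Bend5 difference was not tested.

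Genes whose pattern over the 7 arrays was most like that of Bend5 probe A_51_P158018 were ranked by Pearson's r among 13636 genes with a value on every array. With 2 groups this far apart, r mostly follows the difference between the groups and is given as a description. The highest were Tmem74b (r = 0.987), Pet100 (0.980), Nle1 (0.974), Shd (0.972) and Gpr25 (0.971). All 5 had separate groups, but their differences were small, from 0.12 for Shd, an adaptor with an SH2 domain, to 0.37 for Pet100, an assembly factor of cytochrome oxidase.

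The genes most opposite to Bend5 were Slc2a2 (r = -0.994), Ap1s2 (-0.988), Mpp6 (-0.982), Kdm2b (-0.980) and Ptges3l (-0.978). Slc2a2, the glucose transporter of mouse β-cells, had log2 signals of 9.92, 9.95 and 9.88 in the controls and of 8.17, 8.42, 8.32 and 8.57 in the Wnt4βKO arrays. The difference was -1.54 ± 0.10 (SE), and its adjusted limma p was 0.00697. Kdm2b, a histone demethylase gene, differed by -1.39 ± 0.11 (SE), with an adjusted limma p of 0.02. Slc2a2 and Kdm2b were picked here by r, which mostly follows this contrast, so their p-values are a description. Neither passed with the replicate block, with any single control array left out or without Wnt4βKO replicate 3. Only the Bend5 probes passed in those settings.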

How the data were processed

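Per the labels, each array received Cy3-labelled material from 50 ng of islet RNA. The authors deposited the scanner output of each array, made with Feature Extraction 12.0.1.1 per the file headers, with spot intensity on a linear scale and not normalized between arrays. A deposited value table holds 36693 probes on a log2 scale. Its columns correlated with the scanner arrays at r of 0.834 to 0.863 whichever array was taken, and 1 of 7 had its own array as the best match, so it entered no test and only its values for the family are quoted.

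The median spot and median local background intensity were corrected with normexp (offset 50), quantile normalized on the log2 scale and averaged over repeated spots, after control spots were dropped and outlier-flagged spots set to missing (65 missing values). The mean spot signal that had been planned is not in the files used here. Probes exceeding background on 3 or more of 7 arrays were fitted with lmFit and eBayes in limma 3.58.1 (R 4.3.3). P-values are two-sided and were adjusted by Benjamini-Hochberg across 26151 probes. Fold changes are on the offset scale, which understates changes of dim probes. Where a gene outside the family had several probes, the brightest tested one was used. Other steps used Python 3.11.15. The fit was tested on simulated data.

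Of 56605 probes, 32994 were named through the RefSeq gene table of GRCm38.p6. That build is not the one the arrays were designed on, so no probe was placed on it by position. The order, strands and spans of genes and the upstream windows shown were taken from it. The members and the gene lists were chosen with earlier results of these data known. The text names every probe of the family, Wnt4, Banp, the genes next to Bend5, the 2 genes of each partner list (not of the marker lists) with the largest difference and the 5 genes at each end of the likeness to Bend5. Notch genes on the array without a tested probe are named as well. Alternatives were an offset of 0, uncorrected signals, cyclic loess, the processed signal at its 75th percentile, median scaling, other filters, other variance models, array weights, blocks for replicate number and slide row, and each array left out. The study left out 1 control array for quality.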

Additional observations from a re-analysis of the deposited data

Results flagged for a closer look

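Skint9, one of the genes next to Bend5, had a Wnt4βKO array far from the other 3. Its log2 signals were 5.98, 6.39, 5.94 and 5.98 in Wnt4βKO replicates 1 to 4, and the gap between replicate 2 and the next array took up 0.929 of the range. Of 31 values examined in this way 1 stood out, where 1.55 are expected by chance at 1 in 20.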

How the results depend on the processing

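In 19 alternatives, 0 of the BEN domain probes outside Bend5 and 0 genes of the partner lists passed the adjusted limma threshold, and in 20, with the wider set of neighbours, 0 neighbours of Bend5 did. The Bend5 differences ranged from 4.44 to 5.78 and from 3.82 to 5.18, and from 4.44 to 4.66 and 3.84 to 3.91 when arrays were left out. The count over all probes, 4, became 7 with the processed signal and 2 with the replicate block, and lay between 2 and 5 when arrays were left out. It was 2 without control replicate 2, 3 or 4 and without Wnt4βKO replicate 3. In each setting with a count of 2, both probes were of Bend5. Deviations of same-numbered arrays correlated at -0.129, 0.230 and -0.006, and those of the other pairs at -0.308 to 0.16. With so few arrays, these values cannot decide whether replicate numbers pair the samples. The paper took littermates as controls, and which arrays came from the same litter was not determined. Nacc2 changed sign in 2 alternatives, to -0.04 under the replicate block and -0.04 without Wnt4βKO replicate 1, and the other 4 tested probes outside Bend5 kept their sign in all that were run. Bend3 ranged from 0.14 to 0.79, Bend4 from 0.06 to 0.25, Bend7 from -0.68 to -0.09 and Nacc1 from 0.08 to 0.43, and their lowest adjusted p was 0.523. The causes were not tested. Signals near background limit what can be said of Bend6, Bend4 and Bend7.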

Other observations

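In the deposited table of log2 values, 7 probes of the family were present. The Bend5 probe A_66_P115034 read 6.02, 6.30 and 6.34 in the columns of control replicates 2, 3 and 4 and 5.66, 6.37, 5.79 and 6.28 in those of Wnt4βKO replicates 1 to 4. The Bend3 probe lay between 7.37 and 8.33, that of Bend4 between 5.68 and 6.28 and that of Bend6 (A_52_P629625) between 2.69 and 3.87. How the columns of that table relate to the arrays was not settled, so the groups are not compared in it.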
